A study of Mus musculus with 10 samples.

Results

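The core of the Hippo pathway was examined at 5 genes: Yap1 and Wwtr1 (which encodes TAZ), the transcriptional co-activators of the pathway, Tead1, a transcription factor that carries them to DNA, and Lats1 and Lats2, the kinases that phosphorylate YAP and TAZ and keep them out of the nucleus. Peaks were taken as members when the deposited tables listed them with 1 of these gene symbols. This gave 21 of 44925 H4K20me1 peaks, of which 13 belonged to Tead1, 5 to Wwtr1, 2 to Yap1 and 1 to Lats1, and 44 of 51322 Pol II S2P peaks, of which 33 belonged to Tead1, 8 to Wwtr1, 2 to Lats1 and 1 to Lats2. No H4K20me1 peak was listed with Lats2 and no Pol II S2P peak with Yap1.

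When LATS kinases are inactive, YAP and TAZ enter the nucleus, bind TEAD factors and activate genes of growth and survival. In skeletal muscle, YAP and TAZ act in activated satellite cells, the stem cells that rebuild muscle fibres, and TEAD factors bind muscle gene enhancers. H4K20me1 is the monomethylated form of lysine 20 of histone H4 and commonly covers gene bodies. KMT5B converts it to the dimethylated form. Pol II S2P is the form of RNA polymerase II that elongates transcripts and carries a phosphate on serine 2 of the repeats in its tail.

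The cells were cultured mouse muscle stem cells (MuSCs), and CUT&RUN released the DNA bound by each antibody with protein A-MNase. Control cells (Ctrl) had the genotype Pax7CreERT/Suv4-20h1WT and mutant cells (sKO) Pax7CreERT/Suv4-20h1KO, where Suv4-20h1 is the older name of Kmt5b, so both carried the tamoxifen-inducible Cre that Pax7, a gene of satellite cells, drives. Each genotype had 2 H4K20me1 and 2 Pol II S2P libraries, 8 in all. The study's reporting summary calls them biological replicates without saying whether each came from another animal, so p-values measure the spread between these libraries. The 2 IgG libraries were not analysed here. In such bulk chromatin, a change in every cell and a change in the share of cells that carry the mark cannot be told apart.

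The values are scores, that is, whole numbers of coverage which the authors normalised by spike-in DNA from S2 cells of the fly. The H4K20me1 scores per library summed to 15218720 and 20432644 (Ctrl) and 32194136 and 35046570 (sKO), and the Pol II S2P scores to between 3257665 and 4885638 per library. The number of reads behind a score is unknown. Kmt5b itself carried 3 H4K20me1 peaks, with sums of 1332 and 1740 (Ctrl) and 1934 and 2196 (sKO), and 2 Pol II S2P peaks with 24 and 62 against 48 and 22. At this targeted gene the H4K20me1 scores of the 2 genotypes did not overlap, sKO being higher without being called (log2 fold change 0.44, limma adjusted p = 0.118), and the Pol II S2P scores overlapped. Of 9 muscle stem cell markers 7 had Pol II S2P peaks, with summed scores between 5057 and 7587 per library, while Myf5 and Cdh15 had none. None of 4 fibro-adipogenic markers had a Pol II S2P peak, and 2 of 4 endothelial, 2 of 4 blood, 1 of 3 Schwann cell and 3 of 6 differentiating muscle markers had, with summed scores of at most 256, 144, 171 and 725 in a library.

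The upstream sequences are shown for the 4 of the 5 genes that RefSeq (GRCm38.p6) gave an entry. A Pol II S2P peak overlapped 3 of them, that of Lats1 only at its edge, and none overlapped that of Yap1. Each sequence runs 5′ to 3′ on the strand of its gene, covers up to 250 bases before a RefSeq transcript start, and leaves out every annotated exon. Lats2 has a further RefSeq start, not printed, whose 250 upstream bases held 44.8% G and C and no GC box and had no Pol II S2P peak over them. The printed Lats2 sequence lies inside the gene model used below, and the Pol II S2P peak over it is centred 12.1 kb from the gene start. It also lies beside the start of Gm49361, a gene model on the same strand, so the peak may belong to either. For Lats1 only the 72 bases between its start and that of Pcmt1, which is transcribed the other way, remain. Capitals mark GGAATG, the core letters recognised by TEAD factors, and GGGCGG, the GC box, on either strand.
Wwtr1, chr3:57575911-57576160, minus strand: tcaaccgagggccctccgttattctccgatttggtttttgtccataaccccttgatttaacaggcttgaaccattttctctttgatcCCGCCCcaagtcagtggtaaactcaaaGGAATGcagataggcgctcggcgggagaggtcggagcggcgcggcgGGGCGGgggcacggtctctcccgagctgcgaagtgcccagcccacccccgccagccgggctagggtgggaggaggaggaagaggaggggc
Yap1, chr9:8004597-8004829, minus strand: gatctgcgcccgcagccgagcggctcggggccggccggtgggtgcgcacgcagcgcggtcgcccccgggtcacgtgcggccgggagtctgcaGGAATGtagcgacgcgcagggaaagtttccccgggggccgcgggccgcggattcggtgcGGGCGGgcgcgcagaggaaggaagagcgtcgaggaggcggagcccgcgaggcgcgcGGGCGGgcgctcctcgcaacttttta
Lats2, chr14:57746124-57746373, minus strand: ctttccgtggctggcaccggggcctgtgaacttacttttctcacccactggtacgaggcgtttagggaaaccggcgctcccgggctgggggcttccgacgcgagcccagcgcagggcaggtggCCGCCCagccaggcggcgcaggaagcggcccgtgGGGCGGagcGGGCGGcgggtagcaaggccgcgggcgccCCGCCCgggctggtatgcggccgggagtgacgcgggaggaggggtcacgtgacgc
Lats1, chr10:7681137-7681208, plus strand: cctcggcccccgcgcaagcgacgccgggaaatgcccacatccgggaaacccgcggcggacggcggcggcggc

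The 4 printed sequences were rich in G and C, with 61.6% in Wwtr1, 75.5% in Yap1, 74.0% in Lats2 and 79.2% in Lats1, against a median of 52.4% over 32851 RefSeq promoters for 250 bases and 55.6% for 72 bases. GGAATG stood once in Wwtr1, 136 bases before the transcript start, and once in Yap1, 141 bases before it. It was in 12.6% of all promoters over 250 bases and in 11.9% over the 233 bases of Yap1. Wwtr1 and Yap1 held 2 GC boxes each and Lats2 held 4, where 32.7% of all promoters over 250 bases held at least 1. The Lats1 stretch held neither motif. CCAAT, searched on both strands, was in none of these 4 sequences and in 33.9% of all promoters over 250 bases. The TATA box, searched as TATAAA, was in none either, with 12.4% of all promoters, and neither was the E box CAGCTG, with 13.0%. These are matches of letters and show no binding.

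H4K20me1 rose at the genes of both co-activators, at Tead1 and at Lats1 in sKO, as it did at most genes. The scores below are sums over the peaks listed with the gene, and called means an adjusted p under 0.1 in limma with a log2 fold change past 0.5. All 4 genes with listed peaks were called higher, where 92.3% of the 13750 autosomal genes tested were, so the calls do not set these genes apart. The groups did not overlap at any of the 4, with sKO above Ctrl, as at 96.5% of all genes. Over all genes tested the median log2 fold change was 1.11.

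Wwtr1 gained most. The sum over its 5 peaks went from 603 and 739 in Ctrl to 1851 and 2106 in sKO (log2 fold change 1.56, SE 0.27, limma adjusted p = 5.72e-08). Both sKO libraries stood far above both Ctrl libraries, and the mean score was 2.95 times as high. The rise exceeded that of 82.9% of the genes tested.

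Its paralog Yap1 went from 1597 and 2074 to 3101 and 3561 (log2 fold change 0.87, SE 0.28, limma adjusted p = 0.00258). Tead1, the longest of the 5 genes with 227 kb, went from 4277 and 5208 to 8603 and 9237 (log2 fold change 0.92, SE 0.29, limma adjusted p = 0.00223). The groups did not overlap at either gene, and both rises were smaller than that of the median gene.

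The kinase gene Lats1 went from 3514 and 4793 to 6832 and 6790 (log2 fold change 0.73, SE 0.29, limma adjusted p = 0.0134). Its single peak is 120.4 kb long and only 29.3% of it lies in Lats1. The peak also covers all of Katna1, a microtubule-severing subunit, and parts of Ginm1, Nup43 and Pcmt1, so the score belongs to the whole domain.

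Lats2 could be measured only by overlap. Its 3 overlapping H4K20me1 peaks are listed with Gm49361, a gene model on the same strand that covers 82.1% of Lats2. Their sum went from 1901 and 2532 to 3236 and 3432 (log2 fold change 0.60, SE 0.28, limma adjusted p = 0.0347, with every gene measured by overlap). Lats2 was called higher there, where 92.3% of 13752 genes were. Reads of Lats2 and Gm49361 cannot be told apart.

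These calls rest on the deposited scale. With every library set to the same total, Wwtr1 alone of the 4 was called higher (log2 fold change 0.63, limma adjusted p = 3.92e-08), where 24.1% of genes were called higher and 4.31% lower, and Yap1, Tead1 and Lats1 came to -0.061, -0.012 and -0.20. With quantile normalisation Wwtr1 came to 0.49, and Yap1, Tead1 and Lats1 to -0.059, 0.055 and -0.12. None of the 4 was called there, where 10.3% of genes were called higher and 11.1% lower. Without sKO replicate 1 or without sKO replicate 2, 1 mutant library is left, which is assumed to vary like the Ctrl pair. Wwtr1 then came to 1.66 and 1.47, and Yap1, Tead1 and Lats1 were no longer called. The share of all genes called in these fits is not given here, so they do not set Wwtr1 apart.

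A measure that does not depend on the scale was taken as well. For each library the log2 score of the gene was set against the median gene of that library, which leaves the order of the genes as it was by construction. Wwtr1 lay 0.40 and 0.30 above the median gene in Ctrl and 0.72 and 0.79 above it in sKO, a gain of 0.40 with a pooled SD of 0.06. Against the genes within 2 Mb in place of all genes the gain was 0.22. Yap1 moved the other way, from 1.80 and 1.79 to 1.46 and 1.55, a difference of -0.29. Tead1 differed by -0.24, Lats1 by -0.43 and Lats2, by overlap, by -0.53. The 2 genotypes did not overlap in any of the 5 genes, and the exact two-sided permutation test gave p = 0.333 for each, the smallest that 2 against 2 libraries allow. On this measure 33.4% of all genes had sKO above Ctrl without overlap and 42% had sKO below Ctrl. With quantile normalisation Tead1 came to 0.055, so the direction of its relative change depends on the normalisation.

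**Figure D1:**
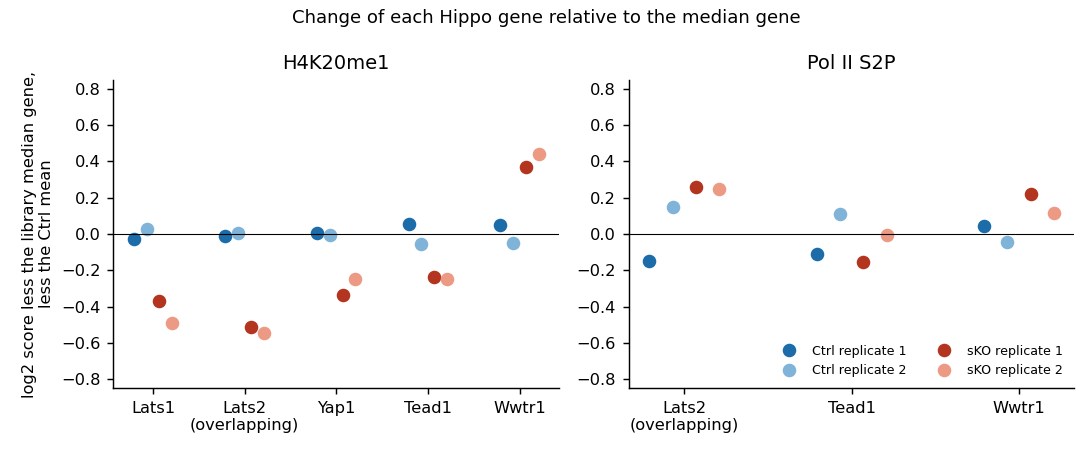
The vertical axis gives the log2 score of a gene less that of the library's median gene, centred on the Ctrl mean, with 1 point for each library and Lats2 taken by overlap. For H4K20me1 (left) only Wwtr1 rises, with sKO 0.40 above Ctrl. For Pol II S2P (right) sKO less Ctrl is 0.17 at Wwtr1, -0.08 at Tead1 and 0.26 at Lats2.

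Set per kb of peak, the members were unequal in Ctrl and close to each other in sKO. In Ctrl, Lats1 had 34.5 per kb, Lats2 33.3 by overlap, Yap1 29.0, Tead1 26.1 and Wwtr1 17.3, and the median gene 23.2. The Ctrl libraries of the first 4 overlapped with those of a neighbour in this order, and both of Wwtr1, with 15.5 and 19.0, stood below all others. In sKO the same genes had 56.6, 50.1, 52.5, 49.2 and 51.0, and the median gene 50.3, and each pair of neighbours in the order overlapped except that both Lats1 libraries stood above all others. Wwtr1 went from the 18.1 to the 55.6 percentile of the genes tested. Tead1 went from the 66.2 to the 42.0 percentile. Yap1 went from the 78.8 to the 66.3 percentile and Lats1 from the 91.8 to the 86.8, both above the median gene.

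**Figure D2:**
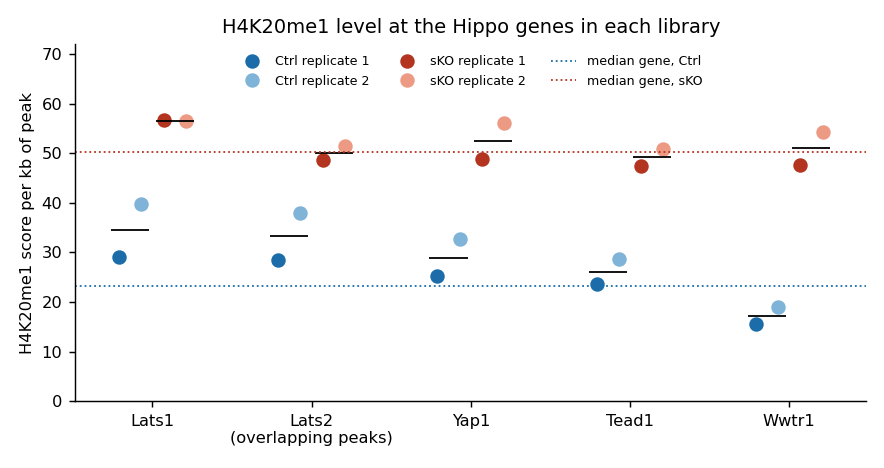
Points are the H4K20me1 score per kb of peak in each library, bars the mean of the 2 libraries and dotted lines the median gene of each genotype. The members lie between 17.3 and 34.5 in Ctrl and between 49.2 and 56.6 in sKO.

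The 21 peaks showed the same narrowing. In all 21 the sKO libraries stood above the Ctrl libraries without overlap, as in 93.8% of 41008 peaks, and 18 were called higher and none lower, where 90% were called higher and 0.00244% lower. Their level per kb lay between 6.92 and 43.8 in Ctrl, a ratio of 6.32, and between 40.7 and 71.9 in sKO, a ratio of 1.76. Over all tested peaks the quartiles were 17.8 and 26.8 per kb in Ctrl, and 44.4 and 53.7 in sKO. A region is in the table because it was called as a peak, and in which libraries it was called is not given, so a region that is low in both genotypes is not seen here. With equal totals 7 of the 21 were called higher and 1 lower, where 25.9% and 3.32% of all peaks were. With quantile normalisation it was 7 and 3, where 11.6% of all peaks were called in each direction.

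Along Tead1 the rise grew towards the 3′ end. The first peak, centred 7.3 kb from the gene start, went from 504 and 514 to 636 and 673 and was not called (log2 fold change 0.36, SE 0.28, limma adjusted p = 0.2). The peak centred at 190.7 kb went from 232 and 227 to 711 and 919, and the one at 204.0 kb, in an intron, from 31 and 77 to 370 and 479. The latter had the largest log2 fold change of the 21, 3.08 (SE 0.37, limma adjusted p = 5.72e-14). The 2 peaks nearest the gene end, at 219.4 and 228.9 kb, rose by 2.13 and 2.25.

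In Ctrl the level along Tead1 fell from 38.6 per kb in the first peak to 6.92 at 204.0 kb and 12.1 at 219.4 kb. In sKO those peaks held 49.6, 54.4 and 51.6 per kb. The SD of the log2 level per kb over the 12 peaks that lie mostly in the gene was 0.98 and 0.63 in Ctrl and 0.22 and 0.25 in sKO.

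Wwtr1 showed a gradient of the same direction. Its first peak went from 157 and 224 to 306 and 269 (log2 fold change 0.61, SE 0.32, limma adjusted p = 0.0617). It was called higher, but was 0.36 and not called without Ctrl replicate 1, 0.87 without Ctrl replicate 2, and not called without either sKO library. The peaks at 62.6 and 71.9 kb went from 63 and 89 to 341 and 459 and from 29 and 43 to 157 and 234, log2 fold changes of 2.39 and 2.41, and the last, at 108.2 kb, rose by 1.95. The level per kb fell along the gene from 30.7 to 13.3 in Ctrl and was 46.4 and 51.7 at the same peaks in sKO. The SD along the gene was 0.79 and 0.79 in Ctrl and 0.29 and 0.29 in sKO. Among 1353 protein-coding genes with at least 5 peaks, the median SD was 0.31 and 0.35 in Ctrl and 0.21 and 0.22 in sKO, and in 55.7% of them sKO lay below Ctrl without overlap.

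**Figure D3:**
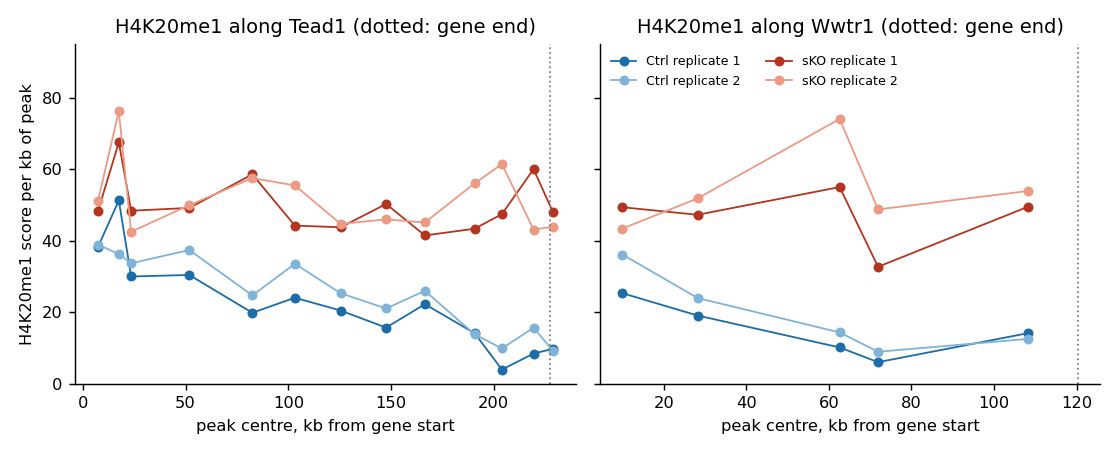
H4K20me1 score per kb of each peak against the distance of its centre from the gene start, with 1 line for each library. The Ctrl lines fall along both genes, with 38.6 per kb in the first peak of Tead1 and 6.92 in its lowest for the mean of both libraries, and the means of the sKO libraries stay between 40.7 and 71.9.

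The last peak with at least 50% of its length in the gene was compared with the first within each library, which does not depend on the scale. In Tead1 the last peak lay 2.15 and 1.30 below the first on the log2 scale in Ctrl, and 0.32 above and 0.24 below it in sKO, a difference of 1.76. In Wwtr1 the difference was 1.34. The groups did not overlap in either gene, and the exact two-sided permutation test gave p = 0.333. The differences exceeded those of 99.6% and 98.7% of 4710 protein-coding genes with 2 or more peaks, whose median was -0.01 and of which 29.6% had sKO above Ctrl without overlap. Many of these genes have fewer peaks than Tead1, with 12, and Wwtr1, with 5. Among the 1353 genes with 5 or more peaks the median was 0.02 and the quartiles -0.35 and 0.37. Of these, 31.8% had sKO above Ctrl without overlap, and the rank of the 2 genes among them was not computed. With each gene split at its middle in place of the end peaks, the differences were 0.80 in Tead1 and 1.19 in Wwtr1, and other genes were not compared. This gradient was looked for after the peak values had been seen, and its peaks are subject to the same choice of regions as above.

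The ends of Yap1 and Lats2 differed less. The 2 peaks of Yap1, at 24.6 and 59.7 kb, rose by 0.87 each, from 1202 and 1596 to 2314 and 2757 and from 395 and 478 to 787 and 804. The last less the first peak changed by 0.00 in Yap1, with overlapping groups, and by 0.11 in Lats2, between the 2 peaks that lie wholly in it. In Lats2 the 3 overlapping peaks rose by 0.38, 0.49 and 0.93 from the start towards the 3′ end, of which only the third was called higher, and 40.1% of that peak lies in Lats2. These calls turned on single libraries. Without Ctrl replicate 2 the first and second peaks came to 0.68 each and were called higher, without Ctrl replicate 1 they came to 0.084 and 0.31, and the third was not called without either sKO library.

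**Figure D4:**
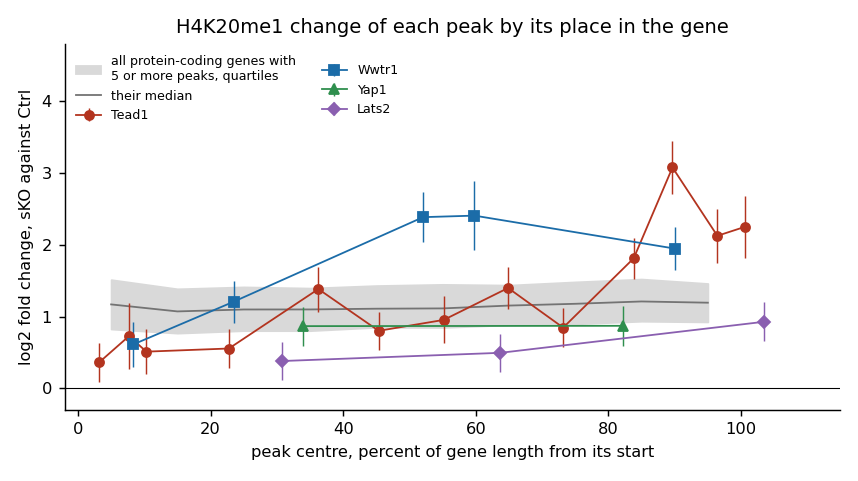
Each point is the log2 fold change of a H4K20me1 peak in sKO against Ctrl with its SE, placed by its centre in percent of the gene length, and the grey band gives the quartiles over protein-coding genes with 5 or more peaks. Tead1 runs from 0.36 to 3.08 and Wwtr1 from 0.61 to 2.41, while the median of all such genes stays between 1.07 and 1.21.

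The neighbours of the 5 genes did not all move with them. Within 2 Mb of Wwtr1, its rise was larger than that of 16 of 19 tested genes, whose median was 1.28. The rise at Yap1 was larger than that of only 1 of 16 genes, with a median of 1.15. Birc3, an inhibitor of apoptosis on one side of Yap1, rose by 1.82, and Cfap300 on the other side by 1.74. Tead1 exceeded 10 of 28 genes around it and Lats1 exceeded 2 of 20. Pcmt1, whose start lies 78 bases from Lats1, went from 1045 and 1216 to 1460 and 1644 (log2 fold change 0.46, limma adjusted p = 0.0967) and was not called. Xpo4, the nearest gene past the 3′ end of Lats2, rose by 0.58 and was called higher.

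For Pol II S2P no change was called at Wwtr1, Tead1 or, by overlap, Lats2. No gene of the 8531 tested was called in either direction (0%), while an unadjusted limma p under 0.05 was reached by 95 genes that were higher and 5 that were lower in sKO. Both counts together are fewer than a threshold of 0.05 would pass if no gene changed. The median log2 fold change over all genes on this scale was 0.09. With equal totals 1.27% of genes were called higher and 0.856% lower, and neither Wwtr1 nor Tead1 was among them. Over its 8 peaks Wwtr1 had 497 and 616 in Ctrl against 807 and 543 in sKO (log2 fold change 0.26, SE 0.43, limma adjusted p = 1). Over its 33 peaks Tead1 had 1636 and 2508 against 2279 and 1829 (log2 fold change 0.01, SE 0.43, limma adjusted p = 1). The groups overlapped at both genes. In simulated data without shifts between libraries, 75 of 90 genes changed by a log2 fold of 1 were recovered per gene, but only 21 of 113 per peak. Those libraries varied less than the real ones, so these counts overstate what could be found here.

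Lats1 with 35 and 61 against 53 and 30, and the only peak listed with Lats2, with 22 and 46 against 27 and 30, had means under the limit of 50 and were not tested. By overlap, 7 peaks of Lats2 summed to 277 and 448 against 527 and 379 (log2 fold change 0.34, SE 0.42, limma adjusted p = 1). Yap1 had no Pol II S2P peak in the gene or within 30 kb of it. Peaks are the only regions in the table, so lower signal at Yap1 is not seen here.

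Relative to the median gene, Pol II S2P at Wwtr1 was 1.76 and 1.67 in Ctrl against 1.94 and 1.83 in sKO, which differ by 0.17 with groups that did not overlap, as in 22.5% of all genes in this direction. At Tead1 the difference was -0.08 with overlapping groups. The exact two-sided permutation test gave p = 0.333 and p = 0.667. Lats2 by overlap differed by 0.26, without overlap (exact permutation p = 0.333), but by -0.027 when set against the genes within 2 Mb. Per kb of peak, the 2 genes stood near the median gene, Wwtr1 with 118.7 and 147.1 in Ctrl and 192.7 and 129.7 in sKO, and Tead1 with 115.9 and 177.7 and with 161.5 and 129.6.

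Within Wwtr1 the strongest Pol II S2P peak lay at the gene start, over the upstream sequence printed above. It scored 174 and 236 in Ctrl and 253 and 184 in sKO and held 35.0% and 38.3% of the score of the gene in Ctrl and 31.4% and 33.9% in sKO. The share in sKO less that in Ctrl was -4.04 percentage points, with groups that did not overlap (exact two-sided permutation p = 0.333), and without Ctrl replicate 2 it was -2.39. Such a lower share without overlap was found in 29.5% of 3095 protein-coding genes with a start peak and another peak, whose median difference was -1.39 percentage points. The other 7 peaks were at most 130 in any library, and 3 of them lay close together, at 65.5, 70.9 and 74.1 kb from the start.

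Tead1 differed in this. Its start peak scored 48 and 57 against 49 and 49 and held between 2.15% and 2.93% of the score of the gene. The strong peaks lay inside the gene, at 17.9 kb with 139 and 230 against 266 and 173, and at 204.7 kb with 164 and 253 against 159 and 142, and at its end with 172 and 257 against 199 and 154. A peak at 81.6 kb, at the start of another protein-coding transcript, scored 100 and 180 against 154 and 134. Of the 33 peaks, 30 lay in introns only.

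None of the 40 tested Pol II S2P peaks of these genes was called, where 0.00897% of all 44587 were called higher and 0.00224% lower, and none had an unadjusted p under 0.05. The groups overlapped in 36 of the 44, sKO was above Ctrl in 4 and below it in 4, and over all tested peaks these shares were 17.2% and 6.66%.

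**Figure D5:**
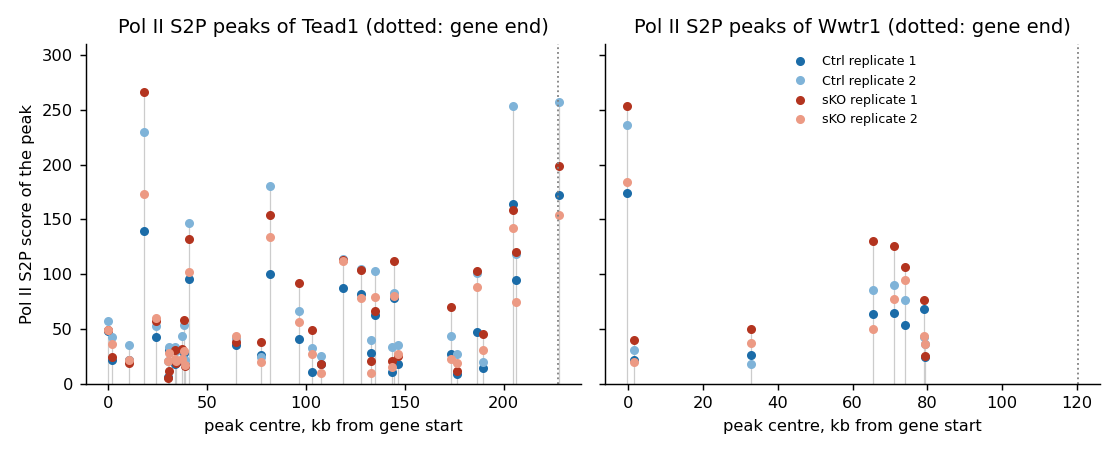
Score of each Pol II S2P peak against the distance of its centre from the gene start, with 1 point for each library and a grey stem up to the highest. Wwtr1 has its highest peak at the start, between 174 and 253, and Tead1 has its highest at 17.9 kb, 204.7 kb and the gene end, with Ctrl and sKO points mixed.

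The 2 marks could be set side by side within Tead1. Of its H4K20me1 peaks 12 hold Pol II S2P peaks, whose mean summed score was higher in sKO in 7 and lower in 5, and the groups overlapped in 11 of the 12. The H4K20me1 peak at 204.0 kb, which rose by 3.08, holds 2 Pol II S2P peaks whose scores summed to 259 and 371 against 279 and 217. The one at 190.7 kb, which rose by 1.81, holds 2 that summed to 61 and 121 against 148 and 119. The first H4K20me1 peak, which was not called, holds 2 that summed to 44 and 78 against 43 and 58. In Wwtr1 the groups did not overlap in 2 of 3 such peaks, with sKO higher. Over all single Pol II S2P peaks tested, 17.2% had sKO above Ctrl without overlap, and the share for sums of this kind was not computed. The H4K20me1 peak at 71.9 kb, which rose by 2.41, holds 2 that summed to 119 and 166 and to 233 and 172, with sKO above Ctrl in both libraries. Of the 33 Pol II S2P peaks of Tead1, 29 lay in an H4K20me1 peak, as did 4 of 8 in Wwtr1, where 69.4% of all autosomal peaks listed with a gene did.

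Some Pol II S2P beside these genes is listed with none of them. A peak of 1443 bases that begins 5134 bases past the end of Lats1 scored 150 and 225 in Ctrl and 363 and 211 in sKO, more in each library than the 2 peaks listed with Lats1 together. A peak of 1441 bases that begins 10574 bases past the end of Tead1 scored 244 and 334 in Ctrl and 408 and 245 in sKO, and a peak of 1738 bases past the end of Lats2, listed with Gm49361, scored 138 and 233 and 248 and 212. The groups overlapped at each of these 3. A Pol II S2P peak at the start of Pcmt1, listed with that gene, reaches only the edge of the upstream sequence printed for Lats1. It scored 27 and 29 in Ctrl and 21 and 12 in sKO.

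Over the 42 further genes of the pathway, 36 were tested for H4K20me1 and 32 were called higher, where 92.3% of all genes were, with a median log2 fold change of 1.02 beside 1.11 for all genes. The upstream kinases, adaptors and junction proteins had the lower values, with 18 of 21 called higher and a median of 0.82. All 7 tested targets of YAP, TAZ and TEAD were called higher, with a median of 1.35, and 7 of 8 nuclear partners, with a median of 1.34. With equal totals 7 of the 36 were called higher and 4 lower, where 24.1% and 4.31% of all genes were.

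The largest rises were at Vgll2, a TEAD cofactor of muscle, with 43 and 56 in Ctrl and 308 and 379 in sKO (2.77 on the log2 scale), at Runx2, a transcription factor of bone that can bind YAP and TAZ (2.20), and at Axl, a receptor tyrosine kinase and YAP target (2.13). Axl came to 0.85 when every overlapping peak was summed, which adds a larger peak listed with Hnrnpul1. All 3 genes were also called higher with equal totals. The lowest values were at Map4k4, a kinase acting on LATS (-0.10, from 5837 and 7864 to 6215 and 6396), at Strn3, a scaffold of a phosphatase that opposes the Hippo kinases (0.21), and at Runx1 (0.29), and none of these was called on the deposited scale. With equal totals these 3 and Taok1 were called lower.

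Among the paralogs, Tead2 rose by 0.82, Tead3 by 1.55 and Tead4 by 1.31, beside 0.92 for Tead1, and only Tead3 was also called higher with equal totals. The kinases Stk3 and Stk4, which activate LATS, rose by 0.73 and 0.77. No H4K20me1 peak was listed with, or overlapped, the targets Ccn1, Ccn2, Ankrd1 and Ajuba. The target Birc5 and the kinase adaptor Mob1a had no listed peak either, but 1 peak listed with Tmem235 overlapped Birc5 (556 and 659 against 922 and 1077) and 1 listed with Tet3 overlapped Mob1a (4087 and 5768 against 7632 and 8657). For Pol II S2P, 37 of the 42 genes were tested and none was called, none had an unadjusted p under 0.05, and the median was 0.15 beside 0.09 for all genes. The values ran from -0.55 at Taok1, which came to 0.22 when every overlapping peak was summed, to 0.55 at Mob1b.

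Over the 8 libraries, with each score set against the library's median gene, the genes most like Wwtr1 among 5848 were Ak5, Tsc2 and Ldlrad4, at Euclidean distances of 0.41, 0.42 and 0.44 where the median gene lay at 4.97. Among those most like Tead1 were Neb and Ulk4, at 0.48 and 0.71 where the median gene lay at 9.08.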

How the data were processed

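CUT&RUN libraries of cultured MuSCs were analysed, 4 for H4K20me1 and 4 for Pol II S2P. Per the submitters' processing notes and the methods, the authors trimmed reads with Trimmomatic 0.39, aligned them to mm10 (GRCm38) with STAR 2.7.3a, removed duplicates with Picard 2.21.7 and normalised coverage by fly spike-in (BDGP6). The deposited score, 1 per library for every peak of a union set, takes whole numbers and is not divided by length. The deposited fraction of a peak that lies in its gene was used as given. Which tool called which peak set is not given in the sources used here, and the scale between libraries was not checked against spike-in reads, which were not used here. The authors used DESeq2, which was not applied because the scores are not counts.

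A gene's score was the sum over the peaks listed with its identifier. Genotypes were compared with limma 3.58.1 in R 4.3.3 (lmFit, and eBayes with a trend) on log2(score + 1), with genotype as the only factor, over autosomal genes with a mean over 50 and peaks with a mean over 20, and with Benjamini-Hochberg adjustment over all of them. Changes at low scores come out too small on this scale. For single values an exact permutation test, two-sided, was used. The procedure was tested on simulated data. Gene models came from GENCODE M21 and tables were made with pandas 2.3.3.

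The 5 genes, the further pathway genes and the markers were chosen with earlier results of these data known. All 5 genes were named, and of the further genes up to 3 with the highest and 3 with the lowest log2 fold change and the paralogs Tead2, Tead3, Tead4, Stk3 and Stk4. The summing of overlapping peaks and the comparisons along the gene were added after the data had been seen. One of the genes most like Tead1 is not reported here.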

Additional observations from a re-analysis of the deposited data

How the results depend on the processing

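Of 566 recalculations under another setting, 471 were rated as the same. For a named gene or peak this meant the same direction and the same side of the threshold. For counts of called members it meant a similar count, for the order per kb no changed rank, and for the other measures only the same sign. Some could hardly come out otherwise, such as counts of members called for Pol II S2P, where no gene was called on the deposited scale. The share rated as the same is therefore no measure of stability. The scale between libraries mattered most. With equal totals 1 of the 4 genes and 7 of the 21 peaks were called higher for H4K20me1 and 1 peak lower, and with quantile normalisation 0 genes and 7 peaks were called higher and 3 peaks lower, against 4, 18 and 0 on the deposited scale. With equal totals the log2 fold changes of Yap1, Tead1 and Lats1 were -0.061, -0.012 and -0.20, those of Tead2, Stk3 and Stk4 -0.10, -0.20 and -0.16, and those of Strn3 and Runx1 -0.72 and -0.63. With quantile normalisation Yap1, Tead1 and Lats1 had -0.059, 0.055 and -0.12. Tead2, Stk3 and Stk4 had -0.41, -0.11 and -0.073 there, and Strn3 and Runx1 -0.66 and -0.63. Among the peaks, equal totals gave -0.57 at the first peak of Tead1, -0.31 at that of Wwtr1, -0.063 and -0.057 at those of Yap1, -0.20 at that of Lats1 and -0.55, -0.43 and -0.0021 at those of Lats2. Quantile normalisation gave -0.75 and -0.63 at the first peaks of Tead1 and Wwtr1, and 0.014 and -0.24 at those of Yap1. It gave 0.065 at that of Lats1 and -0.69, -0.47 and -0.093 at those of Lats2. For Pol II S2P, Tead1 had -0.13 with equal totals and -0.16 with quantile normalisation, Taok1 had 0.22 when every overlapping peak was summed, and Lats2 relative to the genes within 2 Mb had -0.027. The cause was not tested.

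The start share of Pol II S2P at Tead1 differed by 0.21 percentage points when every protein-coding transcript start was counted. Per kb of gene in place of peak, 2 members took another rank for H4K20me1 in sKO, 2 for Pol II S2P in Ctrl and 4 in sKO. Ctrl replicate 1 alone gave 4 and Ctrl replicate 2 alone 2 members another rank for Pol II S2P, and sKO replicate 1 alone 2.

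Leaving out each library in turn, 1 to 4 genes and 10 to 19 peaks were called higher for H4K20me1, with the low counts when either sKO library was left out, which leaves 1 that is assumed to vary like the others. The log2 fold change ran from -0.32 to 0.11 at Map4k4, from -0.008 to 0.43 at Strn3 and from 0.12 to 0.47 at Runx1 for H4K20me1, and from -0.027 to 0.54 at Wwtr1, from -0.30 to 0.32 at Tead1, from -1.02 to -0.073 at Taok1 and from 0.17 to 0.93 at Mob1b for Pol II S2P. Pol II S2P at Tead1 relative to the median gene ran from -0.19 to 0.030, its start share from -0.52 to 0.14 percentage points, that of Wwtr1 from -5.69 to -2.39 and that of Lats1 from -5.68 to 21.8. The last against the first H4K20me1 peak ran from -0.11 to 0.12 in Yap1, from 0.996 to 1.68 in Wwtr1 and from 1.34 to 2.19 in Tead1. For Tead1 the 3′ part against the 5′ part of the gene, split at its middle, gave 0.80 in place of 1.76.

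The libraries of both genotypes share replicate numbers, but the correlation of the deviations of same-numbered libraries was 0.04 for H4K20me1 and -0.04 for Pol II S2P over genes, so the numbers were not taken as pairs. With the replicate block 19 of the 21 H4K20me1 peaks and 4 of 4 genes were called higher. The shares of all peaks and genes called with the block are not given here, so these counts do not set the members apart. No named gene or peak changed its call in the 39 results refitted with the block.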
